A study of Drosophila melanogaster with 15 samples.

Results

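The Myb-MuvB complex, also called dREAM, was followed here at the level of its mRNAs in cultured ovarian somatic cells (OSCs) of *Drosophila melanogaster*. Its members were taken as the rows of the deposited count table that carry one of 9 gene symbols, namely *Myb*, *mip130*, *mip120*, *mip40*, *lin-52*, *E2f2*, *Rbf*, *Rbf2* and *Dp*. All 9 were found among the 16727 genes listed, and all 9 passed the filter on low counts that left 8726 genes for testing. OSCs are a line of cultured somatic cells from the ovary. All libraries came from OSCs treated with RNAi for 48 h, against EGFP in the control, against *l(3)mbt* in L(3)mbt KD and against *lint-O* in Lint-O KD. Each condition had 3 libraries, 9 in all. The study's methods and legends describe these libraries as triplicates and biological replicates, while the labels name no separate cultures, so p-values measure the spread between the libraries as prepared. L(3)mbt is itself found with the Myb-MuvB complex and with a second repressor complex called LINT, and the study asked which partners L(3)mbt needs in OSCs. The comparisons below address how much mRNA of each subunit was present when L(3)mbt or Lint-O had been depleted.

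Myb-MuvB complexes combine a DNA-binding core, MuvB, with either the activator Myb or a repressive module of E2f2, its partner Dp and a retinoblastoma family protein. In flies both modules can sit in one complex, which keeps genes of other cell types silent in differentiated cells and, through Myb, supports transcription of genes for the G2 and M phases of the cell cycle. A testis complex, tMAC, is built from paralogs of MuvB subunits and switches on the meiotic and spermatid program.

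Each library held 19139572 to 32274601 reads on genes. Levels are given as CPM, the count scaled to one common depth by the library total multiplied by its TMM normalization factor. The limit of 3 counts below which a level cannot be shown lay at 0.0958 to 0.158 CPM, by counting error alone. The targeted mRNAs followed the labels. *l(3)mbt* fell to 55.6% of control in L(3)mbt KD, and *lint-O* (*CG2662*) fell to 16.9% in Lint-O KD. Control 3 had only 2.76% of its listed reads in no feature, against 8.45% and 7.98% for the other control libraries, so results are also given without control 3 where they rest on it. Of the 7 follicle cell markers looked up, all were detected in all libraries, and their summed level was 1247 to 1516 CPM for control, 1339 to 1413 for L(3)mbt KD and 1504 to 1587 for Lint-O KD. Single markers moved within that sum. In L(3)mbt KD 3 of the 7 were called higher and 0 lower, beside 22.1% and 14.9% of all tested genes, and in Lint-O KD none was called. Means in control and L(3)mbt KD were 17.5 and 32.3 CPM for *Fas3*, 57.4 and 77.7 for *eya*, and 0.694 and 3.20 for *cas*, which had 14, 12 and 27 counts in control. The log2 fold change there was above 0 for 5 of the 7 and lowest, at −0.25, for *tj*, which was not called. *tj* had 584, 607 and 398 CPM in control and 410, 421 and 509 in L(3)mbt KD. Markers of fat body were at or near 0, with *Lsp1alpha* and *Fbp1* at 0 in all 9 libraries. Other marker lists were not at 0. Summed levels in control, L(3)mbt KD and Lint-O KD were 23.2 to 25.2, 25.3 to 29.1 and 23.1 to 29.8 CPM for hemocytes, 65.5 to 114, 69.3 to 72.6 and 76.4 to 93.6 for neurons, and 17.4 to 19.3, 16.8 to 18.5 and 18.7 to 24.2 for muscle. The neuron and muscle sums came almost wholly from *elav* and *Mhc*, with control means of 94.6 and 18.3 CPM. Control means were 0.0679 for *brp*, 0.0875 for *Syt1*, 0.384 for *nSyb*, 0.0314 for *Act88F* and 0.0897 for *wupA*. The hemocyte markers did not move together. *Pxn* rose by 0.91 and 0.70 on the log2 scale in the knockdowns of L(3)mbt and Lint-O. *srp* had 16.7, 13.8 and 16.0 CPM in control and 11.2, 10.9 and 12.3 in L(3)mbt KD. Of 3 hemocyte markers tested, 1 was called higher and 1 lower in L(3)mbt KD, beside 22.1% and 14.9% of all tested genes. In Lint-O KD 1 was called higher and 0 lower, beside 16.1% and 6.85%. The part of these markers in the results was not tested. In bulk RNA, fewer cells of a type and less RNA per cell cannot be told apart.

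Levels of different subunits were compared per kilobase of exon, as CPM per kb. In control OSCs, the subunits spanned a 15.1-fold range. *Dp*, the dimer partner of both fly E2F proteins, stood highest with 69.5 ± 5.63 CPM per kb (SD, n = 3), next to *Myb*, the only Myb family gene of the fly, with 68.8 ± 2.68, and *mip40*, the fly counterpart of LIN37, with 66.0 ± 2.16. The libraries of these 3 genes overlapped, so their order was not resolved. *Rbf*, the main retinoblastoma protein of the fly, followed with 35.9 ± 1.22 CPM per kb and overlapped neither neighbour. *lin-52*, a small core subunit, had 23.6 ± 0.880 and the repressor *E2f2* had 23.5 ± 1.02, again with overlapping libraries. The 2 large core subunits lay below them, *mip120* with 18.0 ± 0.205 and *mip130* with 12.5 ± 0.836 CPM per kb, without overlap. *Rbf2*, the second retinoblastoma gene, was lowest with 4.61 ± 0.267.

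**Figure D1:**
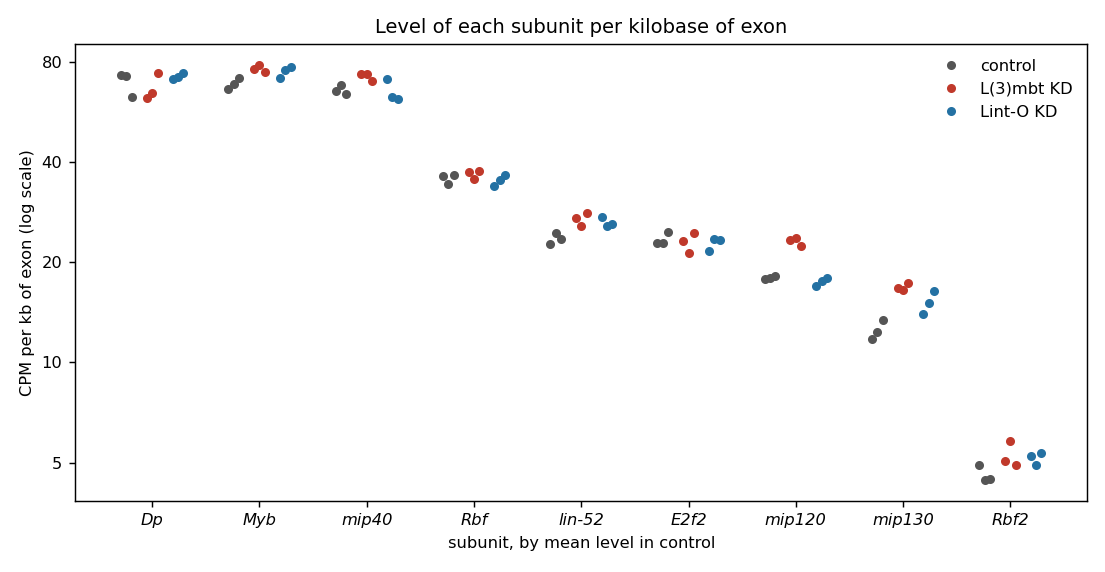
Level of each subunit in CPM per kb of exon (vertical axis, log scale), with one point a library, coloured by condition, and genes ordered by their mean in control. *Dp*, *Myb* and *mip40* lie together at the top, *Rbf2* lies lowest, and *mip120* moves from 18.0 CPM per kb in control to 23.2 in L(3)mbt KD, where its libraries overlap those of *E2f2*.

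Set among the 8704 tested genes with an exon length, *Dp*, *Myb* and *mip40* were at the percentiles 85.0, 84.8 and 84.2 of the level per kb in control. *mip120* and *mip130* were near the middle, at 52.8 and 43.3, and *Rbf2* was at 27.4. All 9 subunits were thus transcribed at a measurable level, and the core subunits did not share one level, since *mip40* lay at 66.0 and *mip130* at 12.5 CPM per kb. The order of the 9 genes was the same with library totals in place of scaled totals. For control it was also the same with the length of the longest transcript, on which *Dp* reached 88.0 CPM per kb and no longer overlapped *Myb*. In L(3)mbt KD *Myb* had 76.5 ± 2.04 CPM per kb and was first per kb of exon, but second to *Dp* (84.8 against 77.1, with overlapping libraries) per kb of the longest transcript. Per kb of exon, *mip120* rose there to 23.2 ± 0.640, level with *E2f2* at 23.0 ± 1.59. In Lint-O KD, *mip120* stayed in the seventh place at 17.5 ± 0.488 and *mip130* was at 15.1 ± 1.23. The sum over the 9 subunits was 320 to 326 CPM per kb with control siRNA, 345 to 354 after L(3)mbt depletion and 333 to 339 after Lint-O depletion. *Dp*, *Myb* and *mip40* weigh most in this sum, and none of them passed the threshold in either knockdown. Sums over other sets of genes were not taken for comparison.

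The DNA before the start of the genes was read from the RefSeq copy of Release 6, since genes of one complex could share elements there. Several kinds of short motif were searched on both strands from 250 bases before to 50 after each annotated start. E2F sites (TTTGGCGC, TTTCCCGC, TTTGCCGC or TTTCGCGC) were found at 0 of the 9 genes, against 6.43% of 13944 promoters of protein-coding genes. The CHR element (TTTGAA), which the mip120 family binds in mammals, was found at 5 of 9, against 40.7%, and Myb sites (AACGG or AACTG after a C or T) at 4 of 9, against 44.3%. The DNA replication-related element, DRE (TATCGATA), which the factor DREF binds, was added after the sequences had been read. It was found at *Myb* and *Rbf2*, 2 of the 9, against 9.37% of promoters. The 120 bases before the start are shown for *Myb*, which has a pair of DREs, for *Rbf2*, which has one, and for *mip130*, which has none. *mip130* was the subunit past the threshold in both knockdowns, though in Lint-O KD not under every alternative. The sequences are given 5′ to 3′ on the strand of the gene, with matches to any of these motifs in capitals.
Myb, chrX:15857824-15857943, minus strand: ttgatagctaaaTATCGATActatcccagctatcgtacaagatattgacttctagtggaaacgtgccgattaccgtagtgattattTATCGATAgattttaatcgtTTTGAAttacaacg
Rbf2, chr3R:15965326-15965445, plus strand: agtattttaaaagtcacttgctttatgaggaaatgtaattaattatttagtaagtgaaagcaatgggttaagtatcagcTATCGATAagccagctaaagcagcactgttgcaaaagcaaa
mip130, chrX:1908119-1908238, plus strand: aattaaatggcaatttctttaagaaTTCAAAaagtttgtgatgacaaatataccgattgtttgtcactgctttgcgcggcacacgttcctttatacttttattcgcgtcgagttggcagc
In *Myb* the DREs begin 108 and 34 bases before the start, a CHR begins 14 bases before it, and a Myb site begins 13 bases after it, beyond the stretch shown. In *Rbf2* the DRE begins 41 bases before the start. In *mip130* one CHR begins 95 bases before the start and another, beyond the stretch shown, 25 bases after it, both on the opposite strand. A match describes these letters only, and the shares at the 9 genes were not tested against the background.

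The genes are spread over the genome, with 4 on the X chromosome, 3 on arm 2R, 1 on 2L and 1 on 3R of Release 6 (dm6). *Myb* lies at chrX:15854832-15857823 on the minus strand, *mip130* at chrX:1908239-1920318 on the plus strand and *mip120* at chr2R:13506430-13513112 on the plus strand. Some share exon bases with other genes, which matters because the strand setting of the counting is not given in the sources used here. *Myb* shares 99.1% of its exon bases with *CG46440*, annotated on the same strand and not a row of the count table. *lin-52* shares 47.9% with *CG15772* on the opposite strand, which had 0 to 5 counts in any library, and *E2f2* shares 19.9% with *Mpp6*, which had 336 to 594 counts. For *mip130* the shared part is 4.42% with *eIF2Bepsilon* and 0.925% with *Edem1*, and *mip120*, *mip40* and *Rbf* share none.

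After L(3)mbt depletion, 2 of the 9 subunits were upregulated and none was downregulated at an FDR of 0.01, with 37.0% of all tested genes called in that comparison, 22.1% as higher and 14.9% as lower. The upregulated subunits were *mip130* and *mip120*, both of the MuvB core. The median log2 fold change of the 9 subunits was 0.15, against −0.02 over all tested genes. Changes were small throughout, between −0.05 and 0.43 on the log2 scale. After Lint-O depletion, 1 of 9, *mip130*, was upregulated and none was downregulated, with 23.0% of all genes called, 16.1% as higher and 6.85% as lower. The median was 0.06 there, against 0.01 over all genes. Both comparisons use the same 3 control libraries. By unadjusted p under 0.05, 5 of 9 subunits differed in L(3)mbt KD and 3 of 9 in Lint-O KD, all higher, while 56.2% and 44.3% of all tested genes met that criterion in one direction or the other. DESeq2 called 2 and 1, none of them lower.

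**Figure D2:**
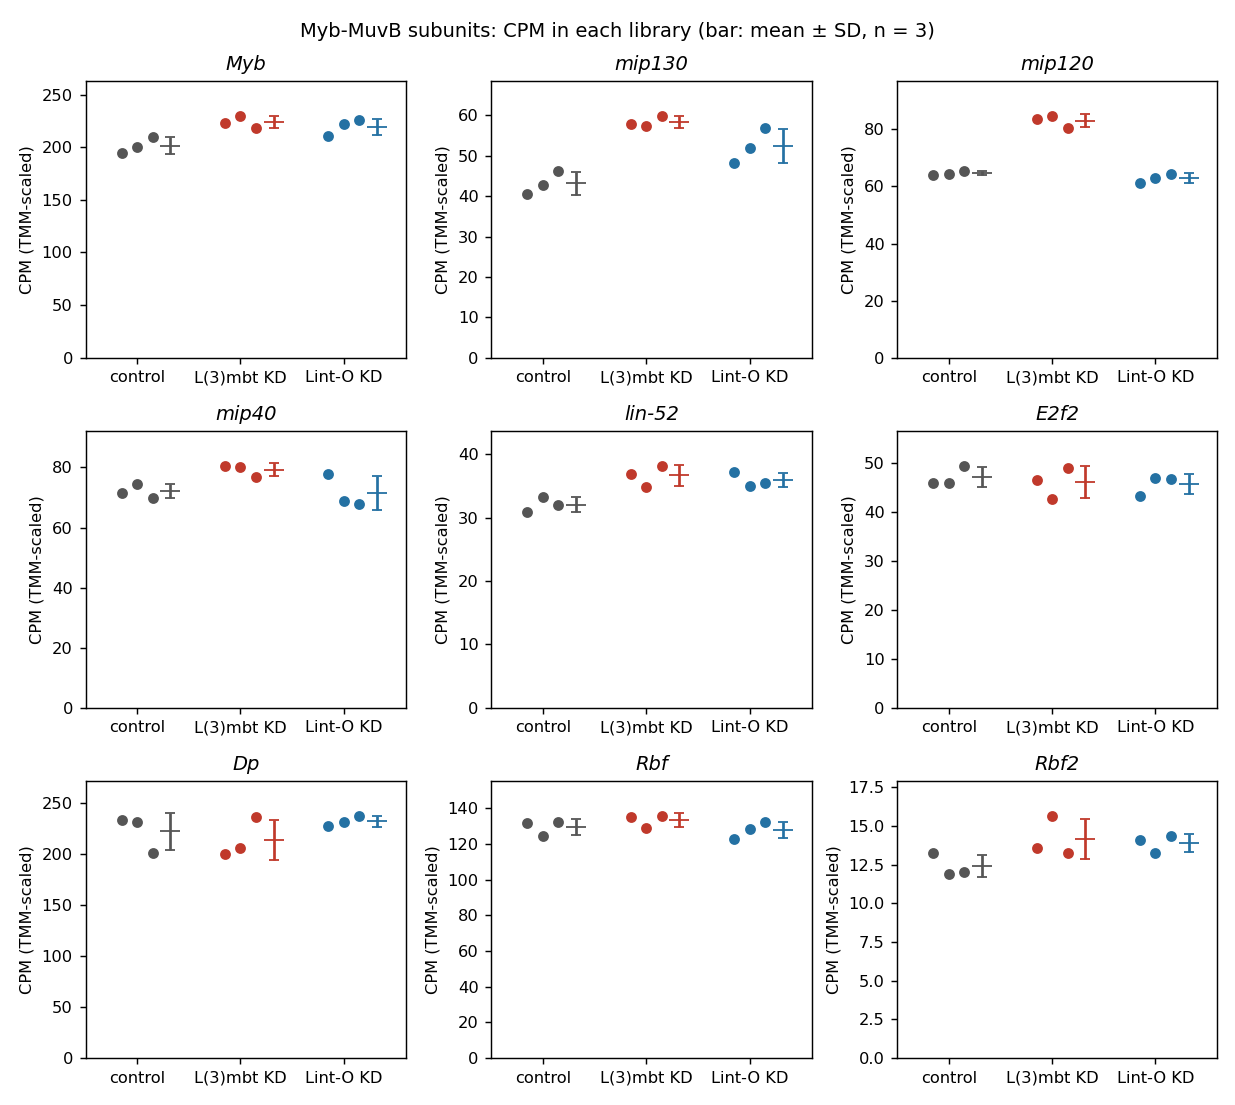
CPM of each subunit in every library (vertical axis from 0), with one point a library and the mean ± SD (n = 3) beside each condition. *mip130* is higher in both knockdowns, *mip120* in L(3)mbt KD, and the 3 *Dp* libraries of control and of L(3)mbt KD spread from about 200 to 237 CPM.

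*Myb* encodes the activator of the complex. It had 194, 201 and 210 CPM in the control libraries, whereas L(3)mbt KD gave 223, 230 and 218 and Lint-O KD gave 211, 222 and 226. All 3 libraries of each knockdown were above all 3 of control, by a narrow margin in Lint-O KD. Libraries of L(3)mbt KD did not overlap those of control, in either direction, at 56.9% of all tested genes, and those of Lint-O KD at 47.1%. The log2 fold change of *Myb* was 0.15 ± 0.05 (SE) in L(3)mbt KD (adjusted p = 0.0232, edgeR quasi-likelihood test with Benjamini-Hochberg adjustment) and 0.12 ± 0.05 in Lint-O KD (adjusted p = 0.0782). Neither passed the threshold. The 95% interval in L(3)mbt KD ran from 0.04 to 0.26.

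*mip130*, the fly counterpart of LIN9 and a core subunit that Myb needs for its stability, had 40.7, 42.7 and 46.4 CPM in control. L(3)mbt KD gave 57.8, 57.3 and 60.0 CPM and Lint-O KD gave 48.3, 52.0 and 56.8. All knockdown libraries were above all control libraries, with the lowest Lint-O KD library close to the highest control. *mip130* rose 1.35-fold in L(3)mbt KD (log2 fold change 0.43 ± 0.07, adjusted p = 0.000132, edgeR) and 1.21-fold in Lint-O KD (0.27 ± 0.07, adjusted p = 0.00774). Without control 3 these values were 0.46 and 0.30, both past the threshold. The call in L(3)mbt KD held with each library left out in turn, over a range of 0.36 to 0.46. The call in Lint-O KD did not: the adjusted p was 0.0454 without control 1, 0.0334 without control 2, 0.0248 without Lint-O KD 2 and 0.0452 without Lint-O KD 3, and it was 0.0132 when only the libraries of control and Lint-O KD were fitted. DESeq2 gave an adjusted p of 0.00343 there.

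*mip120*, the fly counterpart of LIN54 and the core subunit with a cysteine-rich DNA-binding domain, had 64.1, 64.3 and 65.5 CPM in control. L(3)mbt KD gave 83.7, 84.8 and 80.4 CPM and Lint-O KD gave 61.1, 63.1 and 64.5. The L(3)mbt KD libraries stood apart from all others, while the libraries of Lint-O KD and control overlapped. *mip120* rose 1.28-fold in L(3)mbt KD (log2 fold change 0.36 ± 0.05, adjusted p = 3.99e-05) and differed from control by −0.04 ± 0.05 in Lint-O KD (95% interval −0.15 to 0.07, adjusted p = 0.590, edgeR). The call in L(3)mbt KD held with every library left out in turn (0.33 to 0.36) and was 0.34 without control 3.

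The other core subunits differed less. *mip40* had 71.6, 74.6 and 70.0 CPM in control, whereas L(3)mbt KD gave 80.6, 80.3 and 76.7 and Lint-O KD gave 78.0, 68.7 and 67.8. All libraries of L(3)mbt KD were above control, whereas Lint-O KD had one high library and 2 below all of control. Its log2 fold changes were 0.14 ± 0.06 (adjusted p = 0.0797) and −0.01 ± 0.06 (adjusted p = 0.920, edgeR), and the second turned to 0.02 with library totals alone. *lin-52* had 30.9, 33.3 and 32.0 CPM in control, whereas L(3)mbt KD gave 36.9, 34.9 and 38.2 and Lint-O KD gave 37.2, 35.1 and 35.5. All knockdown libraries were above control, and the log2 fold changes of 0.20 ± 0.06 (adjusted p = 0.0198) and 0.16 ± 0.06 (adjusted p = 0.0604, edgeR) did not pass the threshold.

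**Figure D3:**
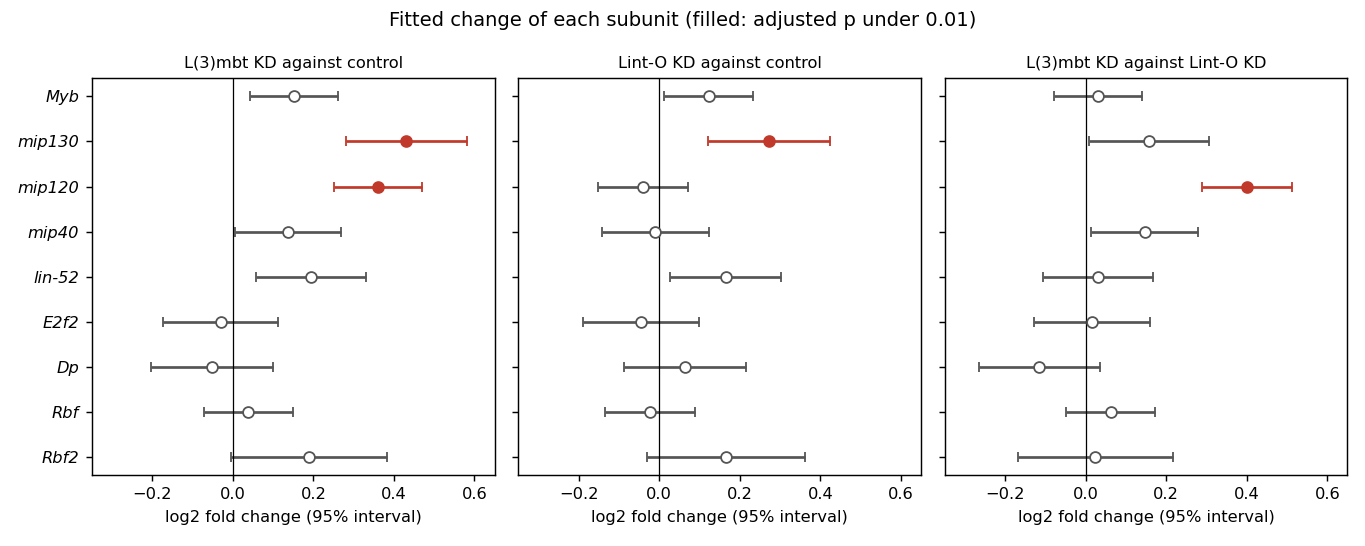
Fitted log2 fold change of each subunit (horizontal axis) with its 95% interval in the 3 comparisons, filled where the adjusted p is under 0.01. Only *mip130* and *mip120* are filled, *mip130* against control in both knockdowns and *mip120* in L(3)mbt KD against control and against Lint-O KD.

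Of the repressive module, no gene passed the threshold. *E2f2*, the E2F protein that acts as a repressor, had 45.9, 45.8 and 49.4 CPM in control, whereas L(3)mbt KD gave 46.6, 42.6 and 48.9 and Lint-O KD gave 43.3, 47.0 and 46.6, with all conditions overlapping. Its log2 fold change was −0.03 ± 0.07 in L(3)mbt KD (95% interval −0.17 to 0.11) and −0.05 ± 0.07 in Lint-O KD (−0.19 to 0.10). The sign in L(3)mbt KD turned to 0.02 with library totals alone.

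*Dp* had 233, 232 and 201 CPM in control, whereas L(3)mbt KD gave 200, 206 and 237 and Lint-O KD gave 227, 232 and 238. Its spread lay mostly within conditions: control 3 was the low control library and L(3)mbt KD 3 the high one of its group, while Lint-O KD was even. Those with the lowest *Dp*, control 3 and L(3)mbt KD 1 and 2, were also the libraries with the lowest share of reads assigned to no feature. It was 2.76%, 2.93% and 3.09% there, against 4.14% to 8.45% in the others. The part of that share in the level of *Dp* was not tested. The log2 fold change was −0.05 ± 0.07 in L(3)mbt KD, became 0.05 with that share as a covariate, and was 0.06 ± 0.07 in Lint-O KD (−0.03 without control 3), none of them past the threshold.

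*Rbf* had 132, 125 and 133 CPM in control, whereas L(3)mbt KD gave 135, 129 and 136 and Lint-O KD gave 123, 128 and 132. All conditions overlapped, with log2 fold changes of 0.04 ± 0.05 (95% interval −0.07 to 0.15) and −0.02 ± 0.05 (−0.13 to 0.09), the second of which was 0.01 with library totals alone. *Rbf2*, which partners *E2f2* in repressor complexes, had 13.2, 11.9 and 12.0 CPM in control, whereas L(3)mbt KD gave 13.6, 15.7 and 13.3 and Lint-O KD gave 14.1, 13.3 and 14.4. All knockdown libraries were above control, barely so for the lowest ones, and the log2 fold changes of 0.19 ± 0.09 (adjusted p = 0.0944) and 0.17 ± 0.09 (adjusted p = 0.179, edgeR) did not pass. *Rbf2* had the fewest counts of the 9 genes, 245 to 384 a library, and the widest intervals. The ratio of *Rbf* to *Rbf2* per kb was 7.80 ± 0.386 in control, 7.05 ± 0.811 in L(3)mbt KD and 6.84 ± 0.349 in Lint-O KD (SD, n = 3).

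Counted together, all L(3)mbt KD libraries exceeded all control libraries for 6 subunits (*Myb*, *mip130*, *mip120*, *mip40*, *lin-52* and *Rbf2*) and lay below all of them for none, against 30.0% and 26.8% of all tested genes. The Lint-O KD libraries were all above for 4 (*Myb*, *mip130*, *lin-52* and *Rbf2*) and all below for none, against 26.6% and 20.5%. By size, the change of *mip130* in L(3)mbt KD exceeded that of 72.2% of all tested genes and the change of *mip120* that of 67.5%. The change of *E2f2* exceeded that of 8.05% and the change of *Rbf* that of 9.75%. The median absolute log2 fold change over all genes was 0.22 in L(3)mbt KD, above the value of 7 of the 9 subunits.

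The knockdowns were also compared with each other. In L(3)mbt KD against Lint-O KD, 1 of 9 subunits was higher and none lower, with 14.0% of all genes called, 8.42% as higher and 5.60% as lower. That subunit was *mip120*, 1.32-fold higher in L(3)mbt KD (log2 fold change 0.40 ± 0.05, adjusted p = 6.32e-05, edgeR), and the call held with each library of the 2 knockdowns left out in turn (0.38 to 0.42). For *mip130* too every L(3)mbt KD library exceeded every Lint-O KD library, as at 22.0% of all genes (20.4% were all below and 42.4% one or the other), but the difference of 0.16 ± 0.07 did not pass (95% interval 0.01 to 0.31, adjusted p = 0.114). So *mip130* was past the threshold against control in both knockdowns, but in Lint-O KD the call was lost when some single libraries were left out. Its difference between the knockdowns did not pass, yet the interval excluded 0, so an equal change in both was not shown. *mip120* differed between the knockdowns by the test of that difference. For the other 7 subunits the difference lay between −0.12 (*Dp*) and 0.15 (*mip40*), with none past the threshold.

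Ratios between single subunits were also taken within each library. Per kb, *Myb* exceeded *mip120* by 3.71, 3.82 and 3.92 times in control, by 3.27, 3.32 and 3.32 times after L(3)mbt depletion and by 4.22, 4.31 and 4.28 times after Lint-O depletion. These 3 sets did not overlap, L(3)mbt KD being lowest and Lint-O KD highest. How often ratios of other gene pairs separate in this way was not counted, so this is a description only. In Lint-O KD neither *Myb* nor *mip120* passed the threshold against control (adjusted p = 0.0782 and 0.590, edgeR). The ratio of *mip120* to *mip130* was 1.45 ± 0.0795 in control, 1.37 ± 0.0707 in L(3)mbt KD and 1.16 ± 0.0618 in Lint-O KD. Only the Lint-O KD libraries stood apart there, since *mip130* was higher in them and *mip120* was not.

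Genes whose profile over the 9 libraries was most like that of a changed subunit were found by the root mean square difference of centred log2 CPM among 7925 other genes with at least 1 CPM. For *mip130* these were *Rel*, an NF-kappaB factor of the immune response (difference 0.036, log2 fold changes 0.46 and 0.27), and *modSP*, a serine protease of the Toll pathway (0.040, with 0.46 and 0.31). For *mip120* they were *eya*, a follicle cell regulator (0.043, with 0.44 and −0.02), and the glycolytic enzyme gene *Pglym78* (0.049, with 0.32 and 0.00367). The first value of each pair is L(3)mbt KD and the second Lint-O KD, both against control. Because these genes were picked for likeness over the same 9 libraries, their fold changes had to resemble those of the subunit. A shared regulation was not tested.

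The testis complex was looked up beside the core. tMAC holds Aly, Tomb and Wuc, paralogs of Mip130, Mip120 and Lin-52, with Topi, Comr, Achi and Vis. Of the 7 genes, 4 passed the filter on low counts (*tomb*, *topi*, *achi* and *vis*), and these were called higher in each knockdown, beside 22.1% and 16.1% of all tested genes. *tomb* passed the filter through the knockdown libraries, where it was high. The count over genes that passed and the fold changes of *tomb* against control are thus a description only. With 10 counts required in every library *tomb* was not tested and 3 tMAC genes were called in each knockdown. *tomb*, on chr2L:5535861-5536758, had 16, 16 and 7 counts in control, whereas L(3)mbt KD gave 158, 129 and 180 and Lint-O KD gave 116, 120 and 97. The groups of each knockdown and control were far apart, and control 3 was the lowest library although it was the deepest. Its fitted level was 11.1-fold that of control in L(3)mbt KD (log2 fold change 3.47 ± 0.26) and 9.41-fold in Lint-O KD (3.23 ± 0.26). With one library left out, the log2 fold changes were 2.95 and 2.72 at the least. These sizes rest on a low control level of 0.224 to 0.779 CPM. The knockdowns differed by 0.24 ± 0.18 (95% interval −0.16 to 0.63, adjusted p = 0.372, edgeR).

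**Figure D4:**
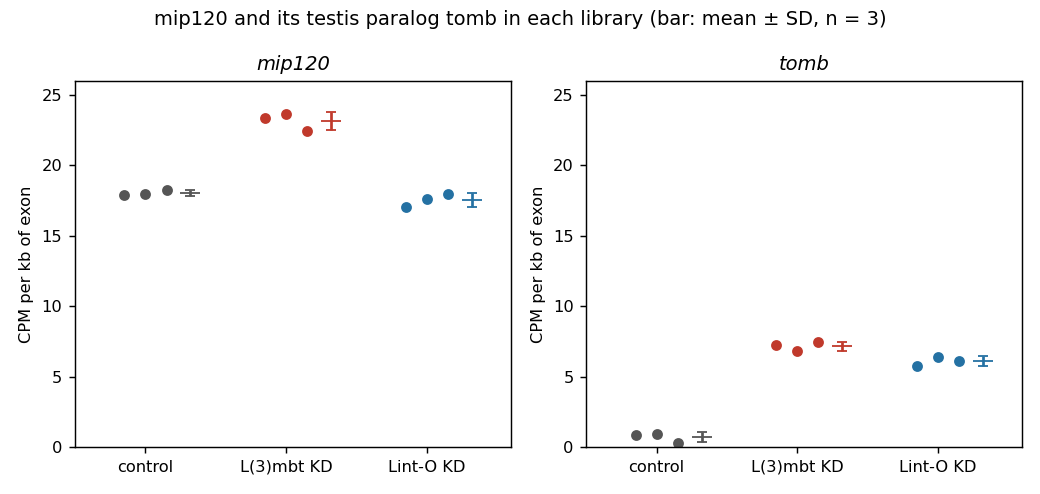
CPM per kb of exon of *mip120* (left) and its testis paralog *tomb* (right) on the same scale, with one point a library and the mean ± SD (n = 3). *tomb* goes from 0.690 in control to 7.15 in L(3)mbt KD and 6.09 in Lint-O KD, while *mip120* stays above it in every library.

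In control OSCs *mip120* exceeded *tomb* per kb by 20.5, 19.3 and 68.3 times in the single libraries. The ratio was 3.23, 3.49 and 3.02 after L(3)mbt depletion and 2.97, 2.74 and 2.95 after Lint-O depletion. The somatic form thus remained the more abundant of the 2 mRNAs in all 9 libraries. *tomb* shares 11.7% of its exon bases with *Cap-D3* on the opposite strand, which had log2 fold changes of 0.35 and 0.38.

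The other paralogs were barely detected. *aly* had 1 count in each control library, while L(3)mbt KD gave 7, 2 and 6 and Lint-O KD gave 4, 0 and 3. For *wuc* the counts were 2, 3 and 7 with control siRNA, 15, 9 and 15 after L(3)mbt depletion and 6, 2 and 1 after Lint-O depletion, and *comr* had none in any library. These 3 genes were not tested. *topi*, a zinc finger gene of tMAC, rose by 0.58 ± 0.09 and 0.64 ± 0.10 on the log2 scale (adjusted p = 0.000129 and 9.24e-05). *achi* and *vis*, near-identical neighbouring homeobox genes whose reads the counting could split, are uncertain one by one and had log2 fold changes of 1.08 and 3.28 after L(3)mbt depletion and of 0.65 and 2.34 after Lint-O depletion. Germ cell markers moved with these genes. Of 11 such markers, 10 were tested and 9 rose in each knockdown, beside 22.1% and 16.1% of all tested genes. *nos* (1, 0 and 10 counts in control), *zpg* (2, 1 and 4) and *orb* (7, 8 and 16) passed the filter through the knockdown libraries, where they were high. That count is thus a description only, and the study itself reported *vas*, *aub* and *AGO3* as upregulated. *osk* did not rise (log2 fold changes −0.22 and −0.40). The summed level of the markers was 88.1 to 98.7 CPM for control, 680 to 746 for L(3)mbt KD and 449 to 475 for Lint-O KD, and *otu* had at most 1 count in any library. The part of the germ cell markers in the values of the tMAC genes was not tested.

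Genes of proteins found with the complex outside the 9 members were compared in the same way. *Caf1-55* (listed as *Caf1*), the histone-binding subunit of the core, had a log2 fold change of 0.14 ± 0.06 in L(3)mbt KD (95% interval 0.01 to 0.27, adjusted p = 0.0682), and in Lint-O KD it had 205 ± 10.0 CPM against 205 ± 15.0 in control. The histone deacetylase *Rpd3* (*HDAC1*) differed by −0.07 ± 0.05 and −0.08 ± 0.05 (adjusted p = 0.250 and 0.279, edgeR). *l(3)mbt* had 123, 139 and 141 CPM in control and 164, 184 and 188 in Lint-O KD, with no overlap, and rose 1.33-fold there (adjusted p = 0.000310).

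Upstream of the Rbf proteins, cyclins and their kinases release E2F. Of 6 genes of this step, 2 were upregulated in L(3)mbt KD, beside 22.1% of all tested genes, *CycE* (log2 fold change 0.41 ± 0.08, adjusted p = 0.000481) and *Cdk4* (0.28 ± 0.06, adjusted p = 0.00153). The call of *Cdk4* was lost without control 2 (adjusted p = 0.0117) and without L(3)mbt KD 1 (0.0116). The activator *E2f1* (listed as *E2f*) had 171, 162 and 151 CPM in control and 203, 218 and 166 in L(3)mbt KD, where one library overlapped control. Its log2 fold change of 0.28 ± 0.08 missed the threshold (adjusted p = 0.0117, edgeR) but passed it with DESeq2 (0.00286) and without L(3)mbt KD 3 (0.000451). Without control 3 it was 0.20 (adjusted p = 0.0666, edgeR). With the share of reads in no feature as a covariate it was 0.32 (0.0128), and neither of these 2 passed. The cyclin gene *CycD* had 70.8, 66.5 and 63.9 CPM in control and 58.0, 62.1 and 57.4 in L(3)mbt KD, all below control. Its log2 fold change of −0.18 ± 0.07 missed the threshold (adjusted p = 0.0345), but without control 3 it was −0.25 and passed as lower (adjusted p = 0.00991). The kinase gene *Cdk2* (listed as *cdc2c*) had 0.12 ± 0.06 (adjusted p = 0.127) and *dap*, whose product inhibits the CycE kinase, 0.13 ± 0.09 (adjusted p = 0.258), which was −0.01 without control 3 and passed as higher (0.31, adjusted p = 0.00258) with the share of reads in no feature as a covariate. In Lint-O KD none of the 6 passed, either here or by DESeq2, and 2 had an unadjusted p under 0.05, *CycE* and *Cdk4*. *CycE* passed there without control 1 (adjusted p = 0.00553). The ratio of *E2f1* to *E2f2* per kb was 1.07 ± 0.106 in control, 1.33 ± 0.270 in L(3)mbt KD and 1.15 ± 0.0498 in Lint-O KD.

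Genes that the complex or E2F is known to act on were looked up as lists. Of 21 genes of DNA replication, 7 were higher and 1 lower in L(3)mbt KD, with a median log2 fold change of 0.15. *Mcm3*, of the replicative helicase, rose by 0.59 ± 0.07 and *dup*, which loads it, by 0.53 ± 0.06, while *DNApol-alpha73* rose by 0.32 and the origin subunit gene *Orc6* fell by 0.26. In Lint-O KD 4 were higher and 0 lower (median 0.06), *Mcm3* by 0.38, *DNApol-epsilon* by 0.33, *dup* by 0.31 and *Mcm5* by 0.29. DESeq2 called 7 higher and 0 lower in L(3)mbt KD, and 5 higher and 1 lower in Lint-O KD. The edgeR count of 4 was 1 without control 2 and 2 without Lint-O KD 3. Shares of 7 of 21 and 4 of 21 stand beside 22.1% and 16.1% of all genes called higher.

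Of 31 genes of the G2 and M phases, the class that Myb with MuvB activates, 9 were higher and 0 lower in L(3)mbt KD (median 0.12). *Nuf2*, of the kinetochore, rose by 0.45 ± 0.06 and the centromeric histone *cid* by 0.38, and the smallest of the 9 changes were those of *tum* (0.22), for cytokinesis, and the mitotic kinase *polo* (0.17). The count was 4 without control 1, without control 2, without L(3)mbt KD 1 or without L(3)mbt KD 3, and 4 with the share of reads assigned to no feature as a covariate. In Lint-O KD 3 were higher and 0 lower (median 0.07), *Nuf2* by 0.36, the kinesin gene *Klp3A* by 0.28 and *borr*, of the chromosomal passenger complex, by 0.23. DESeq2 called 10 higher and 0 lower in L(3)mbt KD, and 3 higher and 1 lower in Lint-O KD. Shares of 9 of 31 and 3 of 31 stand beside 22.1% and 16.1% of all genes called higher. None of these called changes reached a log2 fold change of 1.

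**Figure D5:**
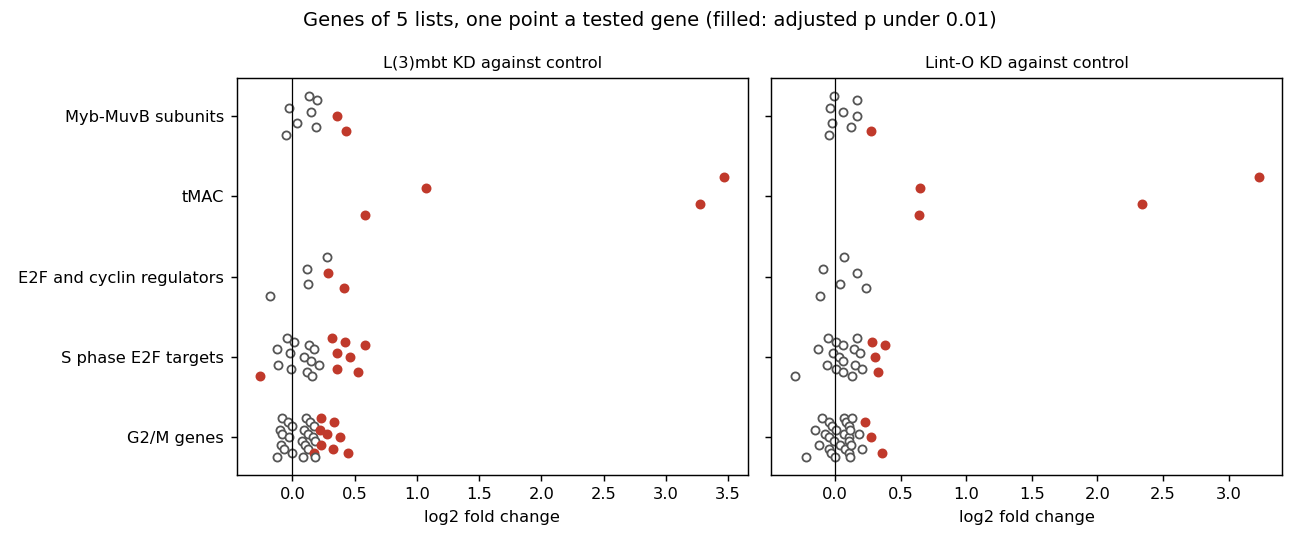
Log2 fold change against control (horizontal axis) of every tested gene of 5 lists in L(3)mbt KD (left) and Lint-O KD (right), filled where the adjusted p is under 0.01, with vertical scatter only to separate points. The 9 subunits lie between −0.05 and 0.43, near the replication and mitotic genes, and the 4 tMAC genes lie at 0.58 to 3.47 on the left and 0.64 to 3.23 on the right.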

How the data were processed

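RNA-seq libraries of OSCs (3 control, 3 L(3)mbt KD, 3 Lint-O KD) were grouped by their labels. The authors deposited raw counts of reads per gene, made after removal of rRNA reads by mapping to dm6 with HISAT2 and, per the labels, with HTSeq. The annotation and strand setting of the counting are not given in the sources used here. Reads listed as ambiguous (1.48% to 1.61%) or of no feature (2.76% to 8.45%) were left out of library sizes. Overlapping reads lost as ambiguous lower the values of genes that share exons.

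Counts were fitted in R 4.3.3 with edgeR 4.0.16 (filterByExpr, TMM, glmQLFit and glmQLFTest, no block) over all 9 libraries, with Benjamini-Hochberg adjustment over 8726 genes and an FDR of 0.01. Levels are TMM-scaled CPM. Exon lengths and coordinates came from RefSeq Release 6, to which 99.2% of genes were matched. Replicates of a condition differed by more than sampling noise (chi-square per degree of freedom 4.94 to 21.3).

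The members, lists, tests and rule for named genes were chosen with earlier results of these data known. The rule names all members, allows any of the associated subunits, tMAC genes and regulators to be named, and adds the 2 largest and 2 smallest changes past the threshold of the replication and G2/M lists in each contrast, the 2 profiles nearest to a changed member, and the depleted genes. Alternatives were DESeq2 1.42.0, its size factors, library totals, other filters and thresholds, fits of 2 conditions, the replicate block, a covariate and each library left out. On simulated counts for 8726 genes, with L(3)mbt KD against control altered, edgeR recovered 79 of 100 changes of 0.5 on the log2 scale and 92 of 100 of 1, with 2 false calls. With Lint-O KD against control altered it recovered 74 and 88 of 100, with 2 false calls. The changes of the subunits against control, at most 0.43, were smaller than these sizes, so recovery at their size was not measured. ChIP-seq was not analysed here.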

Additional observations from a re-analysis of the deposited data

How the results depend on the processing

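The L(3)mbt KD calls of *mip130* and *mip120*, and that of *mip120* between the knockdowns, held under all alternatives run except a minimum absolute log2 fold change of 1. That minimum left 0 subunits in each comparison, 0 associated subunits, regulators, replication genes and G2/M genes, and 2 tMAC genes in Lint-O KD. In L(3)mbt KD 4 subunits passed with library totals alone, with 10 counts in every library or at an FDR of 0.05. In Lint-O KD 0 passed when only 2 conditions were fitted. Leaving out one library gave 2 to 2 subunits in L(3)mbt KD, 0 to 1 in Lint-O KD and 1 to 1 between the knockdowns. It gave 1 to 3 regulators, 6 to 9 replication and 4 to 8 G2/M genes in L(3)mbt KD, and 0 to 1, 1 to 5 and 2 to 3 in Lint-O KD. At an FDR of 0.05 the counts were 4 regulators in L(3)mbt KD, and 1 regulator, 7 replication and 5 G2/M genes in Lint-O KD. G2/M genes in L(3)mbt KD numbered 5 without a filter and 4 with the covariate. The cause of these differences was not tested.

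Signs turned only for genes past no threshold. In L(3)mbt KD, library totals gave 0.0245 for *E2f2* and 0.00169 for *Dp*, and the covariate 0.0488 for *Dp*. In Lint-O KD, library totals gave 0.0227 for *mip40*, 0.00925 for *Rbf* and 0.0324 for *Caf1*, and the minimum of 10 counts 0.00657 for *mip40* and 0.0159 for *Caf1*. Between the knockdowns the covariate gave −0.0237 for *Myb* and −0.0294 for *E2f2*. With one library left out, values ran in L(3)mbt KD from −0.101 to 0.0202 for *E2f2*, −0.013 to 0.0616 for *Rbf* and −0.00792 to 0.190 for *dap*. In Lint-O KD they ran from −0.0781 to 0.0259 for *mip40*, −0.0698 to 0.00355 for *Rbf*, −0.0277 to 0.0781 for *Dp*, −0.0620 to 0.0359 for *Caf1*, −0.00210 to 0.0896 for *E2f* and −0.0881 to 0.0908 for *dap*. Between the knockdowns they ran from −0.000776 to 0.0494 for *Myb*, −0.00314 to 0.0635 for *lin-52*, −0.0339 to 0.0660 for *E2f2* and −0.0518 to 0.0675 for *Rbf2*.

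Library totals changed the split of all genes called in L(3)mbt KD from 1930 higher and 1299 lower to 2181 and 868. Replicate numbers do not pair the libraries (correlations of deviations from −0.20 to 0.15). With the replicate block the subunits called were 2, 1 and 1 as before, and *Caf1* in Lint-O KD was 0.00131. *E2f1* in L(3)mbt KD passed (adjusted p = 0.00432), and no other call of a member, associated subunit, tMAC gene or regulator against control changed. The robust fit, added after seeing the data, gave 2, 1 and 1, and *E2f1* in L(3)mbt KD passed (0.00970).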
